A study of Homo sapiens with 6 samples.

Results

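The unfolded protein response and secretory machinery of the endoplasmic reticulum (ER) was followed through 44 genes in BCWM1, an established cell line of Waldenström macroglobulinemia, a lymphoma whose cells secrete IgM. The genes were named in a list covering stress sensors, chaperones, disulfide enzymes, ER-associated degradation, protein translocation and vesicle transport, and a gene was followed through every microarray probe set whose platform annotation gave it as the only symbol. Of the 44 genes, 40 had such a probe set, 108 in all among the 54613 on the array. SYVN1 and TXNDC5 had only 1 probe set each, annotated with several symbols, KDELR2 and SEC61G had none under their symbols, and these 4 were not analysed here. All 40 kept at least 1 probe set after the dimmest 40% of the array were left out, which kept 101 of the 108 probe sets.

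The mutated group held 3 samples of BCWM1 cells labelled as mutated, and the parental group held 3 samples of the unaltered line. In the title of the series the mutation is one of CXCR4, a chemokine receptor, written as C1013G. How the mutated cells were made, whether they are 1 clone and whether a vector control was kept were not stated in the labels, and the whole comparison rests on a single cell line. No label calls the samples separate cultures. The p-values therefore rest on a spread between samples that may be technical. In a bulk sample, fewer cells of a type and less RNA per cell cannot be told apart.

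The ER responds to unfolded protein through 3 membrane sensors. IRE1 (gene ERN1) splices the mRNA of the transcription factor XBP1, PERK (gene EIF2AK3) slows translation, and ATF6 is cut in the Golgi to release a transcription factor. Their joint targets include the chaperone BiP (gene HSPA5), enzymes that form disulfide bonds, and the machinery that sends misfolded protein back to the cytosol for degradation. Antibody-secreting cells depend on this machinery, since each IgM pentamer needs many disulfide bonds and glycans.

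Median intensity on the arrays was 30.93 to 31.83 in mutated and 28.46 to 29.13 in parental samples, and the values correlated across probe sets with Pearson's r of 0.967 to 0.9695 for mutated with parental samples and 0.994 to 0.996 for samples of one group. B cell markers were bright, with 6 of 6 measured genes above an intensity of 100 on every array, as were 7 of 7 plasma cell markers. T cell markers summed to 72.7 to 89.2 in mutated and 74.2 to 79.98 in parental samples, myeloid markers summed to 75.1 to 89.6 in mutated and 86.5 to 91.9 in parental samples, and no marker of either type was above 100 on every array. The summed stromal and endothelial markers were 1038 to 1104 in mutated and 1071 to 1160 in parental samples, with COL1A1 and PECAM1 above 100 on every array and the other 3 not. COL1A1 was above 100 on its brightest probe set only, and its next brightest averaged 57.7 in mutated and 62.7 in parental samples.

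The ER genes were abundant, and their median barely moved. Each gene was represented by its brightest probe set, and the median intensity over the 40 was 1980 to 2032 in mutated and 1992 to 2060 in parental samples. In mutated cells 12 of the 40 were higher (30.0%) and 10 lower (25.0%) at an adjusted p under 0.05 (limma, Benjamini-Hochberg adjustment over all tested probe sets), while 18 did not pass. Among all 13644 genes tested, 30.1% were higher and 18.9% lower, or 49.0% called in either direction. As 30 of the 40 were among the 3411 brightest genes, the shares there are given too: 28.4% higher, 19.8% lower and 48.3% in either direction. The 55.0% called among the ER genes was near both. The median log2 change, mutated over parental, was 0.05 for the 40 genes and 0.04 for all genes. The split depended on scaling: 13 of the 40 were higher and 13 lower with quantile normalization, and 8 were higher and 14 lower with median centring, against 49.4% and 46.1% of gene calls being higher under those scalings and 61.5% as reported.

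Changes went both ways. On their brightest probe sets the 40 genes ran from a log2 change of −0.58 (KDELR3) to 0.67 (SEC24D), and 0 of them changed by 2-fold, against 5.33% of all genes. The median size of change, without sign, was 0.18 for the ER genes, 0.15 for the 3411 brightest genes and 0.21 for all genes. The 3 mutated values lay wholly on one side of the 3 parental values in 31 of the 40 (77.5%), 16 above and 15 below, beside 69.4% of the 3411 brightest genes and 61.2% of all genes.

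**Figure D1:**
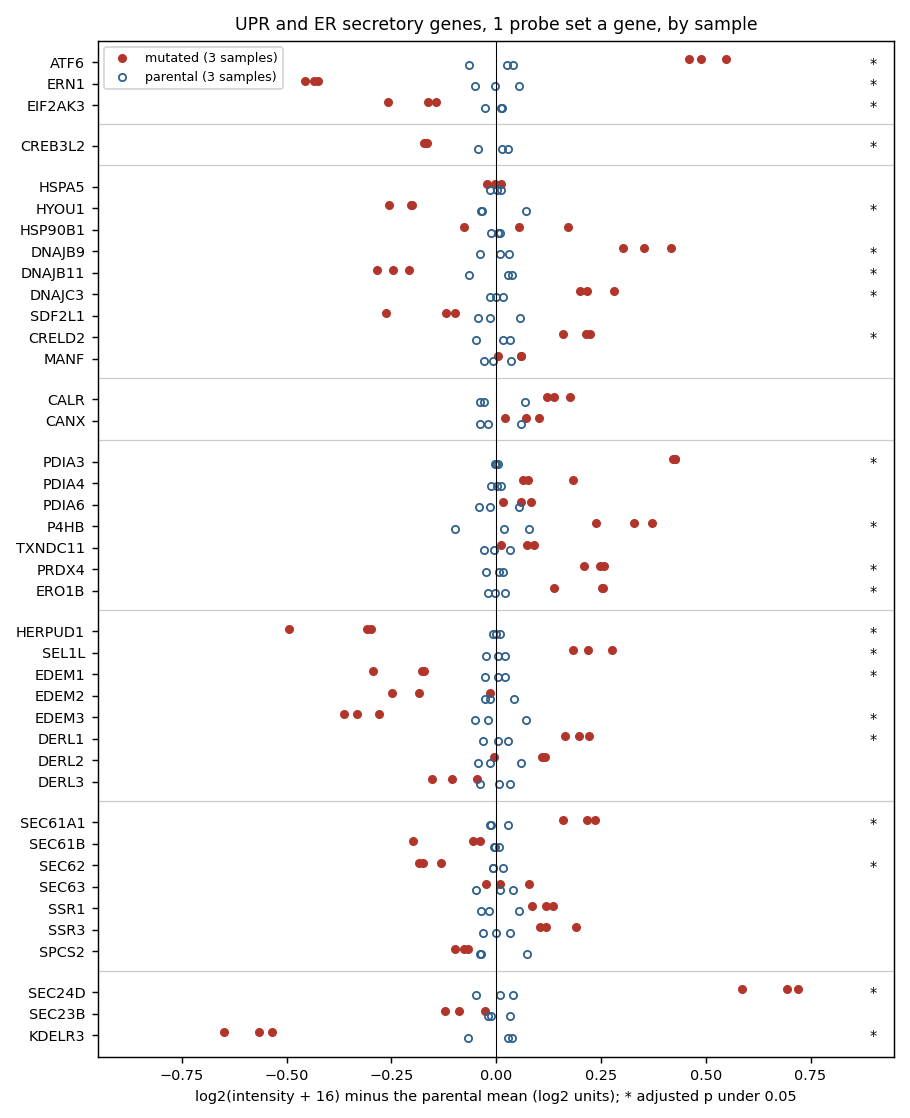
Each row is 1 of the 40 genes on its brightest probe set, ordered by role from sensors at the top to vesicle transport at the bottom; filled points are the 3 mutated samples and open points the 3 parental samples, as log2(intensity + 16) minus the parental mean. SEC24D, ATF6 and PDIA3 sit farthest to the right and KDELR3, ERN1 and HERPUD1 farthest to the left, while HSPA5 overlaps between the groups.

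To show which of these genes carry the classical response elements, promoter windows from RefSeq (GRCh38.p14, 250 bases before to 50 after an annotated start) were searched on both strands. The ER stress response element (ERSE), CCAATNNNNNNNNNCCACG, was found in 7 of the 39 genes with a window, against 0.133% of 15843 protein-coding genes and 0.0769% of all windows. ERSE-II, ATTGG and CCACG with 1 free base between them, was found in 3 of the 39, against 0.0947% of protein-coding genes and 0.0541% of windows. The UPRE core TGACGTGG was found in 6 of the 39 (1.05% of protein-coding genes and 0.729% of windows), and in HYOU1 it overlapped an ERSE-II. The C/EBP-ATF element TGATGNAAT was found in 0 of the 39 (0.877% of protein-coding genes and 0.991% of windows). A match is a description of these letters and no evidence of binding. The ER genes were listed as parts of this response and are counted among the protein-coding genes too. The difference in shares is therefore no independent evidence. The stretches below are shown because they belong to ER genes with a full element that were lower (HYOU1, HERPUD1), higher (CRELD2, ERO1B) and not called (HSPA5, HSP90B1) in mutated cells. Capitals mark the 2 fixed ends of an ERSE or a whole ERSE-II, on either strand, and each line reads 5′ to 3′ along the gene.
HYOU1: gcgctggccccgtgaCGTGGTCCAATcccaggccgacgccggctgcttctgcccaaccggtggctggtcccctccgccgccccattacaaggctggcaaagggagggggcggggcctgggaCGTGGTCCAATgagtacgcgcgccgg
HERPUD1: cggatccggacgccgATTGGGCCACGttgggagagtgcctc
CRELD2: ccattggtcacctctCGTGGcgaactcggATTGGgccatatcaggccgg
ERO1B: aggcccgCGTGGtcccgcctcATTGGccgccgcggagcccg
HSPA5: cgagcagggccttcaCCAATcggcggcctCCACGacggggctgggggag
HSP90B1: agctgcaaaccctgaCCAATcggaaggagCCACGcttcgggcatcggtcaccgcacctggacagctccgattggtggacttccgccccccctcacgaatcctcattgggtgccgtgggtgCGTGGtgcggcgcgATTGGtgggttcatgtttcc

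These stretches lie at chr11:119057259-119057405 (minus strand, HYOU1), chr16:56932010-56932050 (plus strand, HERPUD1), chr22:49918539-49918587 (plus strand, CRELD2), chr1:236282168-236282208 (minus strand, ERO1B), chr9:125241376-125241424 (minus strand, HSPA5) and chr12:103930201-103930354 (plus strand, HSP90B1), all before the start site. The other genes with a full element were CALR, CANX, PDIA6 and SDF2L1. Of the 10 genes with an ERSE or ERSE-II, 2 were higher, 2 lower and 6 not called, with a median log2 change of 0.05. Of the 26 other tested genes with a window, 7 were higher, 8 lower and 11 not called, with a median of 0.03. Over all genes tested, 30.1% were higher and 18.9% lower. The 2 higher genes, CRELD2 and ERO1B, held an ERSE, and the 2 lower genes, HYOU1 and HERPUD1, held an ERSE-II. The difference between the elements was not tested.

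Of the stress sensors, ATF6 and ERN1 gave probe sets called in opposite directions. ATF6 measured 882, 865 and 919 in mutated samples, against 635, 642 and 596 in parental samples, on its brightest probe set. The mutated values were all higher, with a log2 change of 0.50 (SE 0.053; limma, adjusted p = 4.7e-04). On the next brightest ATF6 probe set the order turned round, with 567 ± 15.2 in mutated and 698 ± 37.7 in parental cells (SD, n = 3), a log2 change of −0.29 (limma, adjusted p = 0.0065). The remaining ATF6 probe sets gave 0.39 (adjusted p = 0.0024) and 0.20, which did not pass (limma, adjusted p = 0.091).

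ERN1, which encodes IRE1, measured 404, 396 and 402 in mutated samples, against 529, 569.9 and 548 in parental samples. The groups did not overlap, and the log2 change was −0.44 (SE 0.049; limma, adjusted p = 5.8e-04). Its second probe set was higher, at 428 ± 5.75 in mutated and 359 ± 25.0 in parental cells (SD, n = 3), a log2 change of 0.25 (limma, adjusted p = 0.016). As the mean of its probe sets ERN1 did not pass (log2 change −0.12; limma, adjusted p = 0.11). EIF2AK3, which encodes PERK, measured 1822, 1704 and 1848 in mutated samples, against 2064, 2060 and 2006 in parental samples. All mutated values were lower, with a log2 change of −0.19 (SE 0.052; limma, adjusted p = 0.024). That call was lost without mutated replicate 1 (0.0502) or 2 (0.076) and without parental replicate 1 (0.071) or 2 (0.066). Where these probe sets lie along their transcripts was not analysed here.

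**Figure D2:**
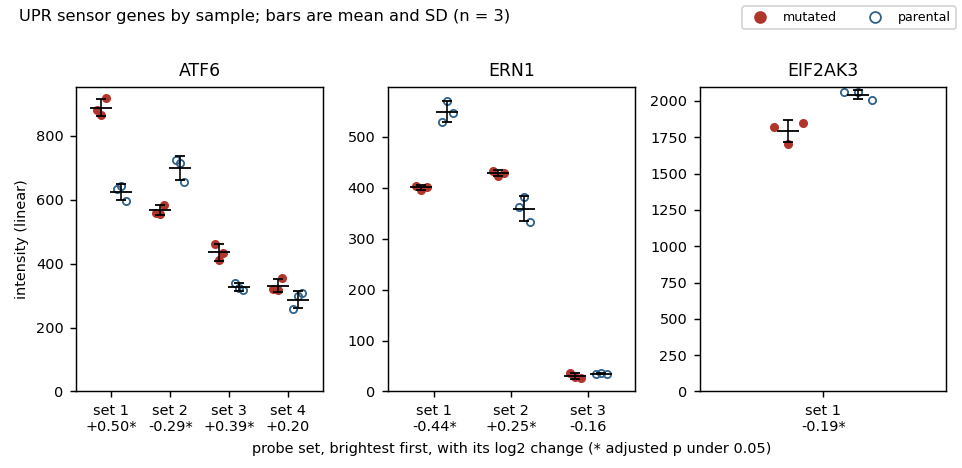
Linear intensity of every tested probe set of ATF6, ERN1 and EIF2AK3, brightest first, with mutated samples (filled) left of parental samples (open) and bars for mean and SD of 3 samples. ATF6 probe sets show log2 changes from −0.29 to 0.50 and ERN1 probe sets from −0.44 to 0.25.

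XBP1, the transcript that IRE1 splices, was close between the groups at 2655 ± 53.5 in mutated and 2852 ± 7.50 in parental cells (SD, n = 3), a log2 change of −0.10 that did not pass (limma, adjusted p = 0.10). It passed as lower with quantile normalization (adjusted p = 0.046), median centring (0.023) and limma's trend and robust options (0.019). A dim second XBP1 probe set went the other way, at 30.3 ± 2.73 in mutated and 25.5 ± 1.73 in parental cells (SD, n = 3). Its log2 change of 0.16 did not pass (limma, adjusted p = 0.082), and nor did the mean of both probe sets (0.03; limma, adjusted p = 0.60). These values do not separate spliced from unspliced XBP1. CREB3L2, a membrane-bound transcription factor related to ATF6, was lower at 2788 ± 8.32 in mutated and 3136 ± 82.4 in parental cells (SD, n = 3), a log2 change of −0.17 (limma, adjusted p = 0.023). Its other probe sets gave −0.03 and 0.10 and did not pass, and the call was lost without mutated replicate 1 (0.062) or 2 (0.069) and without parental replicate 2 (0.069) or 3 (0.068).

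Among 9 chaperones and co-chaperones, 3 were higher (33.3%), 2 lower (22.2%) and 4 not called, near the 30.1% and 18.9% of all genes. BiP itself, the main Hsp70 of the ER, measured 4565, 4613 and 4503 in mutated samples, against 4580, 4527 and 4614 in parental samples, on the brightest HSPA5 probe set. These values overlapped, with a log2 change of −0.004 (SE 0.044; limma, adjusted p = 0.95). A dim second HSPA5 probe set was higher, at 133 ± 3.09 in mutated and 94.9 ± 7.75 in parental cells (SD, n = 3; log2 change 0.42; limma, adjusted p = 0.0020). HSP90B1, the Hsp90 of the ER, gave 0.05 on its brightest probe set, which did not pass (limma, adjusted p = 0.60), and −0.46 on a dimmer one (0.0056). Averaged over its probe sets, HSPA5 passed as higher (0.21, adjusted p = 0.0081) and HSP90B1 as lower (−0.20, adjusted p = 0.045).

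The 3 that were higher assist BiP or follow stress. DNAJB9, an Hsp40 partner of BiP that also restrains IRE1, measured 981, 937 and 906 in mutated samples, against 736, 746 and 710 in parental samples. All mutated values were higher, with a log2 change of 0.36 (SE 0.052; limma, adjusted p = 0.0018), and its other probe sets gave 0.32 and 0.76, both called higher. DNAJC3, an Hsp40 that inhibits PERK, was higher at 1507 ± 45.0 in mutated and 1280 ± 14.2 in parental cells (SD, n = 3; log2 change 0.23; limma, adjusted p = 0.0073). CRELD2, a secreted stress-induced protein, gave 0.20 (limma, adjusted p = 0.016), which was lost with median centring (0.12) and without mutated replicate 1 (0.054) or 2 (0.054) or parental replicate 3 (0.054).

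HYOU1, which recharges BiP by exchanging its nucleotide, was lower at 1879 ± 40.7 in mutated and 2192 ± 94.3 in parental cells (SD, n = 3; log2 change −0.22; limma, adjusted p = 0.014). DNAJB11, another Hsp40 partner of BiP, was lower as well, at 1605 ± 43.5 in mutated and 1906 ± 74.5 in parental cells (SD, n = 3; log2 change −0.25; limma, adjusted p = 0.0091). The BiP partners thus split, with DNAJB9 and DNAJC3 higher and HYOU1 and DNAJB11 lower, and none of these 4 calls was lost in any alternative that tested the gene. SDF2L1, which binds DNAJB11, gave −0.16 (limma, adjusted p = 0.080) and MANF, a secreted stress protein, 0.04 (0.52). The lectin chaperones that hold newly glycosylated proteins did not pass, with CALR at 0.14 (limma, adjusted p = 0.060) and CANX at 0.06 (0.35).

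Enzymes of disulfide bonds and redox control were higher in 4 of the 7 tested (57.1%) and lower in 0. Over all genes 30.1% were higher and 18.9% lower, and the difference was not tested. PDIA3, the isomerase that works with CALR and CANX on glycoproteins, measured 3499, 3506 and 3511 in mutated samples, against 2600.02, 2615 and 2603 in parental samples. The groups were far apart relative to their spread, with a log2 change of 0.43 (SE 0.043; limma, adjusted p = 3.6e-04). Its dimmer probe sets gave 0.46 and 0.37, both called. P4HB, the most abundant isomerase of many cells, was higher at 3926 ± 185 in mutated and 3157 ± 196 in parental cells (SD, n = 3; log2 change 0.31; limma, adjusted p = 0.0086). Another P4HB probe set changed by 2.27-fold, with 527 ± 53.8 in mutated and 232 ± 22.4 in parental cells (SD, n = 3), while the next brightest gave 0.10 and did not pass (limma, adjusted p = 0.15).

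PRDX4, a peroxiredoxin of the ER, was higher at 3118 ± 54.9 in mutated and 2641 ± 38.1 in parental cells (SD, n = 3; log2 change 0.24; limma, adjusted p = 0.0055). ERO1B, an oxidase that recharges the isomerases, gave 0.22 (limma, adjusted p = 0.016) and 0.77 on its second probe set, but the first call was lost with median centring (0.10) and without mutated replicate 1 (0.054) or 2 (0.055) or parental replicate 1 (0.052). PDIA4 (0.11), PDIA6 (0.05) and TXNDC11 (0.06) did not pass on their brightest probe sets, while a dimmer PDIA4 probe set gave 0.29 and was called higher (limma, adjusted p = 0.0050).

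Among 8 tested ER-associated degradation genes, 2 were higher (25.0%), 3 lower (37.5%) and 3 not called, beside 30.1% and 18.9% of all genes. HERPUD1, which organises the retrotranslocation complex, measured 3926, 3902 and 3427 in mutated samples, against 4827, 4809 and 4859 in parental samples. Every mutated value was lower, mutated replicate 3 most so, with a log2 change of −0.37 (SE 0.066; limma, adjusted p = 0.0043). Its dim second probe set gave −0.29 and did not pass, and nor did the mean of both (limma, adjusted p = 0.074). EDEM3, a mannosidase that marks misfolded glycoproteins, measured 351, 344 and 365 in mutated samples, against 470.1, 431 and 441 in parental samples. The groups did not overlap, with a log2 change of −0.33 (SE 0.055; limma, adjusted p = 0.0033), and its other probe sets gave −0.31 and −0.29, both called lower.

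EDEM1, of the same family, was lower at 3794 ± 178 in mutated and 4400.1 ± 75.2 in parental cells (SD, n = 3; log2 change −0.21; limma, adjusted p = 0.017), a call lost without parental replicate 1 (0.056) or 3 (0.05005). EDEM2 gave −0.15 and did not pass (limma, adjusted p = 0.13). SEL1L, the scaffold of the ubiquitin ligase SYVN1, was higher at 1906 ± 61.8 in mutated and 1626 ± 25.5 in parental cells (SD, n = 3; log2 change 0.23; limma, adjusted p = 0.0091). DERL1, a channel protein, gave 0.19 (limma, adjusted p = 0.014) and 0.40 and 0.16 on its other tested probe sets, with the first call lost under median centring (0.10) and without mutated replicate 1 (0.0503). Its relatives DERL2 (0.07) and DERL3 (−0.10) did not pass, and DERL3 was dim, at 69.5 ± 3.19 in mutated and 75.6 ± 2.29 in parental cells (SD, n = 3). EDEM1 and EDEM3 were thus lower, and SEL1L and DERL1 higher.

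Of the 7 tested translocation genes, 1 was higher (14.3%), 1 lower (14.3%) and 5 not called on their brightest probe sets. Over all genes 30.1% were higher and 18.9% lower. SEC61A1, the pore of the translocon, was higher at 1227 ± 33.8 in mutated and 1062 ± 18.3 in parental cells (SD, n = 3; log2 change 0.20; limma, adjusted p = 0.013), though not with median centring (0.076). SEC62, which assists posttranslational entry, was lower at 1831 ± 36.4 in mutated and 2053 ± 20.4 in parental cells (SD, n = 3; log2 change −0.16; limma, adjusted p = 0.024). Its other probe sets ran from −0.28 to 0.48 with calls in both directions, and the first call was lost in 9 of 17 alternatives, among them those without mutated replicate 2 (0.073) or 3 (0.054) and without parental replicate 1 (0.073), 2 (0.054) or 3 (0.058). SSR1, a subunit of the translocon-associated TRAP complex, gave 0.11 on its brightest probe set (limma, adjusted p = 0.10), but its 5 dimmer probe sets gave 0.15 to 0.69 and 4 of them were called higher. SSR3 (0.14), SEC63 (0.02), SEC61B (−0.10) and the signal peptidase subunit SPCS2 (−0.08) did not pass on their brightest probe sets. Dimmer tested probe sets were called higher in 3 of 3 for SEC63, 2 of 3 for SSR3 and 1 of 1 for SEC61B.

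On the brightest probe sets, the largest rise and the largest fall among the ER genes were both in vesicle transport. SEC24D, a subunit of the COPII coat that selects cargo leaving the ER, measured 2731, 2489 and 2681 in mutated samples, against 1699, 1664 and 1597 in parental samples. All mutated values were higher, with a log2 change of 0.67 (SE 0.057; limma, adjusted p = 1.8e-04), and the dimmer SEC24D probe sets gave 1.05 and 0.75. Its coat partner SEC23B gave −0.08 and did not pass (limma, adjusted p = 0.24). The next brightest SEC23B probe set gave −0.22 (limma, adjusted p = 0.025), and the dimmest gave 0.16 and did not pass (0.076). KDELR3, a receptor that returns escaped chaperones to the ER, measured 22.9, 25.3 and 26.1 in mutated samples, against 46.7, 42.3 and 46.3 in parental samples. The groups did not overlap, with a log2 change of −0.58 (SE 0.057; limma, adjusted p = 3.2e-04), but the mutated values lay under the array median, and the other KDELR3 probe sets were too dim to be tested.

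Which probe set represented a gene mattered here, as it did over the array. Of 29 ER genes with several tested probe sets, 3 (ATF6, ERN1 and SEC62) had calls in both directions, or 10.3%, beside 6.53% of 6708 such genes over the array. Log2 changes of both signs, called or not, were found in 13 of the 29 (44.8%), near the 42.4% over the array. Over all 101 tested probe sets, 42 were higher and 17 lower, against 30.9% and 16.6% (47.5% in either direction) of all 32768 probe sets, and in 74 of the 101 the groups did not overlap, against 57.8% of all. The 61 dimmer probe sets of these genes were higher in 30 (49.2%) and lower in 7 (11.5%), with a median log2 change of 0.20. The brightest probe sets of the same 29 genes were higher in 10 (34.5%) and lower in 5 (17.2%), with a median of 0.07. Over the array, the dimmer probe sets of such genes were higher in 32.2% and lower in 15.5%, with a median of 0.08. The brightest there were higher in 33.7% and lower in 20.1%, with a median of 0.05. Intensity moved with this result, and its part in it was not tested.

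**Figure D3:**
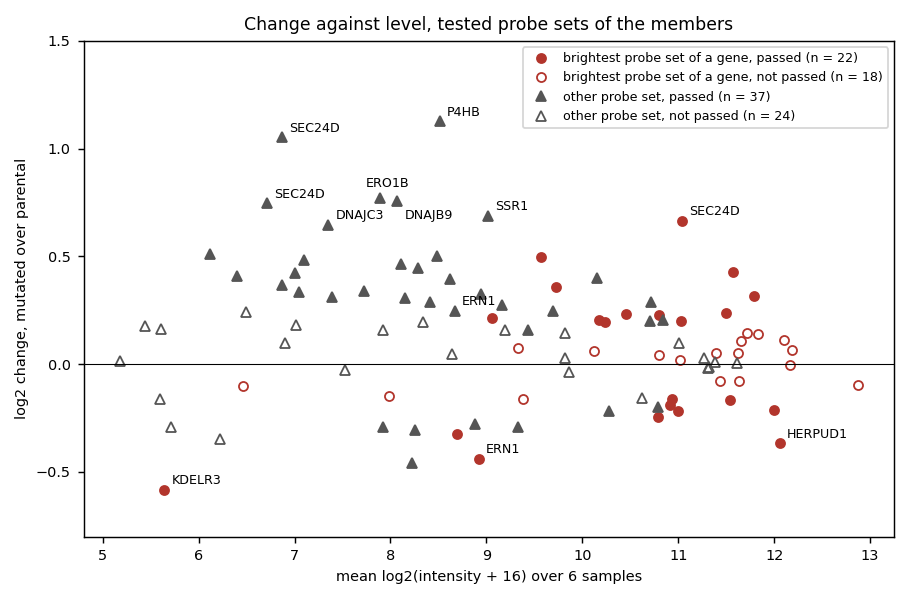
Log2 change, mutated over parental, against mean log2(intensity + 16) for the 101 tested probe sets; circles are the brightest probe set of each gene, triangles the others, and filled symbols passed at an adjusted p under 0.05. Changes above 0.68 all come from dimmer probe sets of P4HB, SEC24D, ERO1B, DNAJB9 and SSR1.

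Secretory cargo and plasma cell genes are given beside these values because the line makes IgM. IGHM, the IgM heavy chain, was lower at 6629 ± 267 in mutated and 9118 ± 324 in parental cells on its brightest probe set (SD, n = 3; log2 change −0.46; limma, adjusted p = 7.8e-04), and its other tested probe sets gave −0.21, −0.26 and, on a dim one, 0.74, all called. JCHAIN, which joins IgM pentamers, was lower at 3552 ± 243 in mutated and 4970 ± 34.0 in parental cells (SD, n = 3; log2 change −0.48; limma, adjusted p = 0.0010). PRDM1, which encodes the plasma cell factor Blimp-1, measured 109, 104 and 103 in mutated samples, against 354, 362 and 330.4 in parental samples, a log2 change of −1.59 (SE 0.055; limma, adjusted p = 3.6e-06). Of the 7 plasma cell markers, 4 were lower and 1 higher, beside 18.9% and 30.1% of all genes. SDC1 (−0.87) and TNFRSF17 (−1.89) were the other lower ones, and MZB1 (0.48) was higher. IRF4 (−0.02) and XBP1 (−0.10) did not pass on their brightest probe sets. The 7 markers summed to 13605 to 14337 in mutated and 17837 to 18467 in parental samples. Their part in the changes of the ER genes was not tested.

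A further 117 genes of the same compartments, from 6 lists, were examined, and 113 were tested. Of these, 51 were higher (45.1%), 6 lower (5.31%) and 56 not called, with a median log2 change of 0.15, beside 30.1% and 18.9% of all genes. With quantile normalization 50 were higher and 11 lower, beside 25.0% and 25.6% of all genes. With median centring 37 were higher and 15 lower, beside 22.4% and 26.1% of all genes. Named genes are those with the smallest adjusted p in each direction, not the largest changes. The lists differed in their counts as follows, with no test of the difference between them.

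In oxidative folding and prolyl isomerases, 11 of 18 were higher (61.1%) and 0 lower, beside 30.1% and 18.9% of all genes. Among the higher were the isomerases FKBP7 (log2 change 1.19) and FKBP14 (0.76) and ERO1A (0.60), the relative of ERO1B. ERO1A measured 4809, 4960.01 and 4665 in mutated samples, against 3111, 3132 and 3234 in parental samples. In glycan transfer and trimming, 10 of 17 were higher (58.8%) and 0 lower. TUSC3, a subunit of the oligosaccharyltransferase, was at 1013 ± 47.3 in mutated and 96.4 ± 7.01 in parental cells (SD, n = 3; log2 change 3.20). PRKCSH (0.50) and OSTC (0.40) were higher too. The 10 became 6 with median centring, with only probe sets that lack the suffixes _s_at, _x_at and _a_at, and without mutated replicate 1 or 2 or parental replicate 1 or 3. Of ER-Golgi transport genes, 15 of 30 were higher and 0 lower, with SEC22B (0.52), MCFD2 (0.47) and ARF4 (0.41) among the higher. With median centring 10 of this list were higher and 4 lower. The lower count was 3 with limma's trend and robust options, and 2 with quantile normalization or with the dimmest 60% left out. In the oxidative folding list and in the glycan list, 1 gene was lower with quantile normalization and with median centring. The oxidative folding list also had 1 lower with the dimmest 60% left out and with limma's trend and robust options. The same held with averaged probe sets and with only probe sets lacking those suffixes.

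Of other sensors and targets of the unfolded protein response, 6 of 14 were higher (42.9%) and 1 lower (7.14%), beside 30.1% and 18.9% of all genes. DDIT3, which encodes the stress factor CHOP downstream of PERK, measured 661, 679 and 704 in mutated samples, against 395, 412 and 468 in parental samples, a log2 change of 0.66 (SE 0.073; limma, adjusted p = 5.3e-04). DNAJC1 (0.55) and SIL1 (0.50), which work with BiP, were higher too, and TMEM33 (−0.29) was lower. Other degradation genes were higher in 5 (29.4%) and lower in 3 (17.6%) of 17, near those shares of all genes. The AAA ATPase gene VCP (−0.49), its cofactor NPLOC4 (−0.55) and the ubiquitin enzyme UBE2J1 (−0.28) were lower, while NGLY1 (0.40), FAM8A1 (0.26) and FAF2 (0.24) were higher. Other signal recognition and translocation genes were higher in 4 (23.5%) and lower in 2 (11.8%) of 17, both under the shares of all genes. SSR2 (0.36), TRAM2 (0.25) and SEC11A (0.23) were higher and SRP19 (−0.21) and SRP54 (−0.16) lower. The lower count became 0 without mutated replicate 1 or 2 or parental replicate 2 or 3, and with only probe sets lacking those suffixes. SRP54 (limma, adjusted p = 0.0495) lost its call in 9 of 17 alternatives and SRP19 in 4. The higher count became 2 with median centring.

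**Figure D4:**
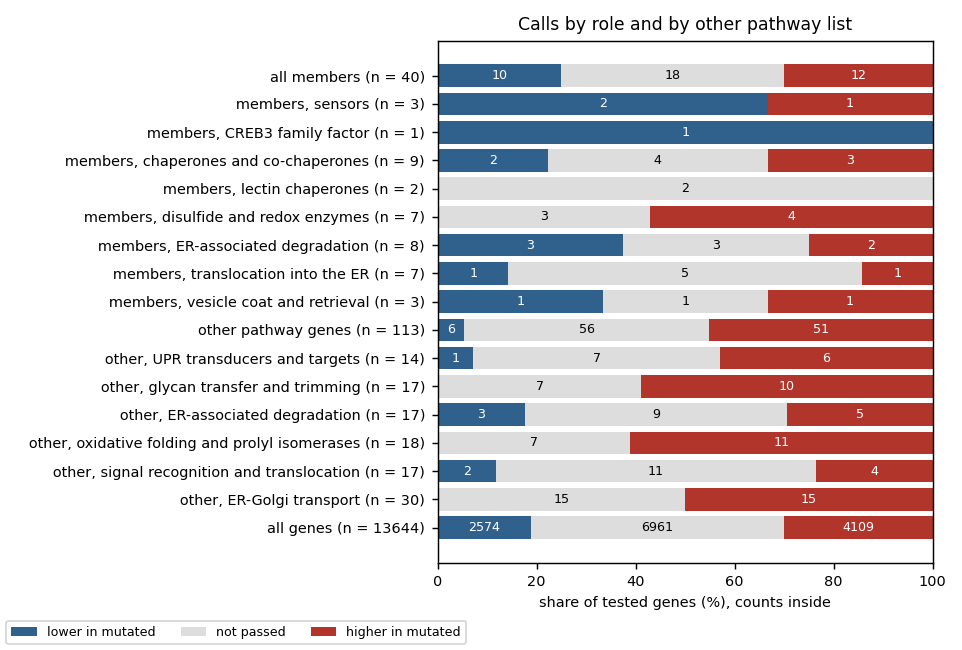
Share of tested genes called lower in mutated (left, blue), not called (grey) and higher in mutated (right, red) for the 40 ER genes, for each role, for the 6 further lists and for all 13644 genes, with counts inside the bars. The disulfide and redox enzymes have 4 higher and 0 lower, and the further lists together have 51 higher and 6 lower.

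Across 17 other processing settings, 12 of the 22 called ER genes kept their direction and their call wherever they were tested. These were ATF6, DNAJB9, DNAJC3, PDIA3, P4HB, PRDX4, SEL1L and SEC24D among those higher and HYOU1, DNAJB11, EDEM3 and KDELR3 among those lower. The other 10 lost the call in at least 1 setting, and 0 of the 22 changed direction. Except under averaging, these settings followed the brightest probe set of a gene. They therefore do not bear on the next brightest ATF6 probe set, which was called lower (log2 change −0.29). Of the 18 uncalled genes, 9 passed in the direction of their reported change in at least 1 setting, among them CALR and SSR3 as higher and SDF2L1 as lower in 5 of 17 each. As means of their probe sets, HSPA5 (0.21) and HSP90B1 (−0.20) passed against the sign of their reported changes.

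**Figure D5:**
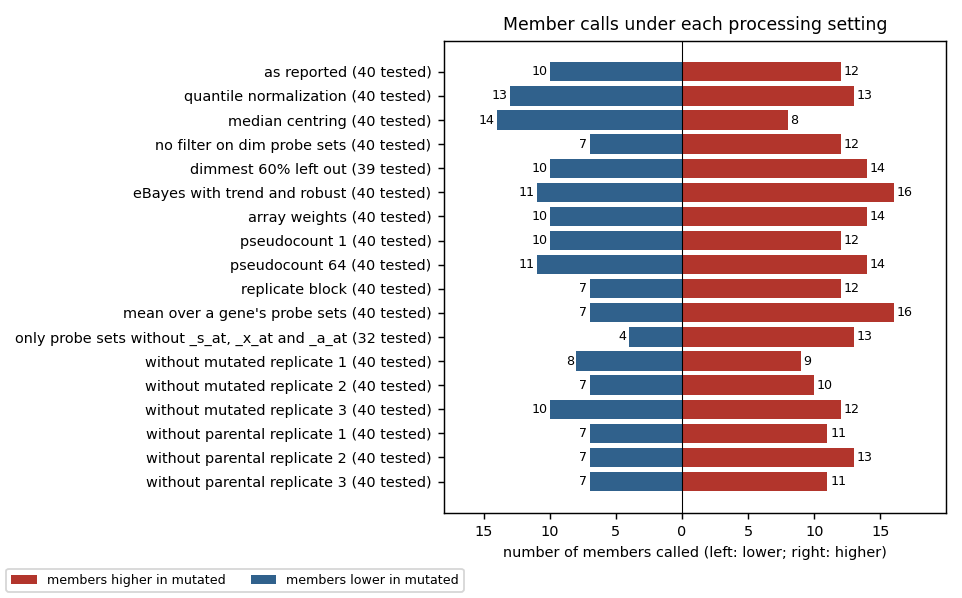
Number of the ER genes called higher in mutated (right) and lower in mutated (left) under each processing setting, with the number tested in brackets. Counts run from 8 to 16 higher and from 4 to 14 lower.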

How the data were processed

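Expression arrays of 3 mutated and 3 parental BCWM1 samples were used, hybridised with biotin-labelled cRNA, per the labels' protocols. Each deposited value is a linear intensity of 1 probe set. How the authors summarised, background-corrected and scaled it was not stated in the labels or file headers used here. Groups come from the sample titles. The platform annotation gave 1 symbol to 41091 of 54613 probe sets, several to 1801 and none to 11721, and 0 symbols changed through Entrez IDs.

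Values were taken as log2(intensity + 16), which understates the change of dim genes, and every log2 change is on that scale. The dimmest 40% were left out, and limma 3.58.1 under R 4.3.3 was run on the other 32768 probe sets (linear model on group alone, moderated two-sided test), with Benjamini-Hochberg adjustment at 0.05. A gene was represented by its brightest tested probe set. The procedure was tested on simulated data. The 6 arrays limit the precision, and the median pooled SD was 0.047 for the ER genes and 0.093 for all tested probe sets on the log2 scale. Promoters were searched with Python 3.11.15, and figures drawn with matplotlib 3.10.9.

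The ER genes and the 6 further lists were chosen with earlier results of these data known. Every ER gene was named. Full statistics went to the sensors and to the 4 largest called changes in each direction, and from each further list up to 3 called genes in each direction were named, by adjusted p, besides XBP1. IGHM, JCHAIN, PRDM1, SDC1, TNFRSF17, MZB1 and IRF4 were taken from the marker lists after their values were seen. Alternatives were quantile normalization, median centring, other filters and pseudocounts, limma's trend and robust options, array weights, a replicate block, averaging the probe sets of a gene, probe sets without shared suffixes, and each sample left out.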

Additional observations from a re-analysis of the deposited data

How the results depend on the processing

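With quantile normalization the median log2 change of the ER genes was 0.018 and 11 further pathway genes were lower. With median centring these values were −0.028 and 15. With limma's trend and robust options 11 further genes were lower. With only probe sets that lack the suffixes _s_at, _x_at and _a_at, which left 32 ER genes, 4 ER genes were lower, 26 of their probe sets were higher and 5 lower, and the median was 0.12. Leaving out each sample in turn gave 9 to 13 ER genes higher and 7 to 10 lower, 33 to 43 of their probe sets higher and 12 to 17 lower, a median of 0.021 to 0.067, and 38 to 51 further genes higher and 4 to 6 lower; the lowest median came without mutated replicate 1. As the mean of its probe sets, HSPA5 gave 0.21 and HSP90B1 −0.20. The labels state no pairing by replicate number, so the numbers were not taken as pairs. Same-numbered samples correlated in their deviations by 0.11, 0.027 and 0.11, above the −0.11 to 0.0028 of differently numbered samples. Whether same-numbered samples share a batch was not tested. With the replicate number as a block, 12 ER genes were higher and 7 lower, and EIF2AK3 (adjusted p = 0.054), CREB3L2 (0.056) and SEC62 (0.054) lost their calls. Each other alternative left these counts within 1.5 times. The causes of these shifts were not tested. Among ER probe sets the SE was largest, at 0.28, on the dim second HERPUD1 probe set.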
